A study of Mus musculus with 2 samples.

Results

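A set of 9 complement genes was followed in microglia sorted from the brains of amyloid-bearing mice: the 3 chains of C1q (C1qa, C1qb and C1qc), the central component C3, the anaphylatoxin receptors C3ar1, C5ar1 and C5ar2, and the integrin chains Itgam and Itgb2 that together form complement receptor 3. They were chosen by name, as 9 of the 32285 gene rows of the count table. All but C3, 8 genes in all, had a count in at least 1% of the cells of either library and belong to the 11910 genes that passed this minimum. C3 had a count in 0.163% of cells in 1 library and 0.234% in the other.

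Complement is a cascade of plasma and tissue proteins that marks targets for removal. C1q, built from A, B and C chains, recognises its targets and starts the classical pathway through its proteases C1r and C1s, C4 and C2, which leads to cleavage of C3. The fragments left on the target are bound by complement receptor 3 on phagocytes, while the small soluble fragments C3a and C5a act on C3ar1 and on C5ar1 and C5ar2. In the brain, microglia are known as the main source of C1q, and C1q, C3 and complement receptor 3 are known for their part in the removal of synapses.

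The mice were PSAPP animals (APPswe/PS1.delta.E9), which express mutant human amyloid precursor protein and presenilin 1 and form amyloid plaques. From 9 to 10 months of age, males and females received either vehicle (VEH) or lemborexant (LEM, 30 mg/kg/day), a dual orexin receptor antagonist used against insomnia, by gavage each day for 1 month. Live CD45lo CD11b+ cells were sorted from cortex and hippocampus, those of 5 mice were pooled, and each pool gave 1 single-cell library read from the 5′ end of transcripts. Both groups carry the transgenes, no wild-type animals were included here, and the sort selects on CD11b, the protein that Itgam encodes.

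Each treatment is a single library, so no difference has a replicate check and no test is given. Values are CPM, the unique molecules of a gene scaled to the same total in every group of cells so that 10000 CPM are 1% of its counts, differences are log2 ratios of CPM, and the range in brackets is the 95% interval from counting alone. It leaves out the variation between mice. Cells called female from Xist or male from Y-linked genes come from different mice of the same pool, so their values are given beside the pooled ones. A gap between them holds both the sex and the mice, which cannot be told apart. A CPM is a share of all RNA counted, so less RNA of one gene and more of the others cannot be told apart from CPM alone. A lower CPM in a deeper gate is a lower share and need not be fewer counts per cell.

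In VEH 116229678 counts came from 18374 cells (median 5971 per cell), and in LEM 160752298 came from 24392 cells (median 6034). Called female cells were 38.7% of the cells with a called sex in VEH and 42.8% in LEM. The microglial markers P2ry12, Tmem119, Cx3cr1, Csf1r and Sall1 were found in 78.1% to 99.5% of cells, while the summed markers of neurons, neutrophils and T cells were each below 1 CPM, those of astrocytes and monocytes below 5 CPM, and those of endothelium at 13.2 and 10.1 CPM. Oligodendrocyte markers summed to 56.6 CPM in VEH and 60.4 CPM in LEM, nearly all from Mag and Mbp. Mag had a count in 15.4% of VEH and 17.0% of LEM cells and Mbp in 15.3% and 16.7%, with Mog in under 1%.

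Cells were put into states by raw counts of marker genes, none of them a complement gene. Homeostatic cells (14561 in VEH and 18236 in LEM) had at least 2000 counts, 5 or more of them from at least 2 of P2ry12, Tmem119 and Cx3cr1, and met no other gate. The remaining microglial gates were Apoe high (1332 and 3238 cells), DAM, the disease-associated state with Cst7 and its companions (134 and 195), an intermediate gate with fewer counts of the same markers (286 and 420), MHC class II high (295 and 255), interferon (200 and 356) and proliferating (131 and 197). Droplets with choroid plexus transcripts (53 and 149) and border-associated macrophages (BAM, 23 and 61) were kept apart. Cells of the smaller gates were deeper, with medians of 11616 and 12409 counts in DAM against 5932 and 5808.5 in the homeostatic gate. Levels are therefore compared between states in CPM, and a share of cells with a count is higher in deeper cells at the same level. Of the Apoe high cells with a called sex, 14.9% in VEH and 14.2% in LEM were female.

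The 3 C1q genes lie side by side on mouse chromosome 4, all on the reverse strand (GENCODE annotation, GRCm38). C1qb spans chr4:136880129-136886187, C1qc chr4:136889804-136893065 and C1qa chr4:136895917-136898803, with 3616 bases between C1qb and C1qc and 2851 between C1qc and C1qa. The 250 bases before the RefSeq start site (GRCm38.p6) are shown for C1qb (chr4:136886201-136886450), as an example of a gene of this cluster, whose members kept nearly the same proportion in every state below. RefSeq and GENCODE place some starts differently. The RefSeq starts of C1qc and C5ar1 lie inside the gene spans given here, so their windows are not shown, and those of C1qa and Itgb2 are not shown either. Capitals mark GGAAGT on either strand, the core that ETS factors such as the myeloid factor PU.1 bind.
C1qb: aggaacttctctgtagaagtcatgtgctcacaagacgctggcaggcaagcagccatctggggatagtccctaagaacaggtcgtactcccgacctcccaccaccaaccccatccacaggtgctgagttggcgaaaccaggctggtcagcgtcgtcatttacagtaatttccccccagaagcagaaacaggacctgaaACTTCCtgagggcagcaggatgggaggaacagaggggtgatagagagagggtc
The match lay 53 bases before the start. Of the windows not shown, those of C3, C3ar1 and Itgam hold 0 matches, that of C1qc 1 and that of C5ar1 2. Of all 32851 windows in the table, from 250 bases before to 50 after a start, 23.8% hold GGAAGT, so the match is given as a description only.

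C1q transcripts were present in nearly every cell and changed little between the libraries. C1qa stood at 8071 CPM in VEH and 8546 in LEM, C1qb at 7056 and 7129, and C1qc at 6279 and 6462. The 3 chains summed to 21406 CPM in VEH. In LEM they summed to 22137 CPM, for a log2 ratio over VEH of 0.05 (0.05 to 0.05). In called female cells the sum was 20275 in VEH and 21911 in LEM (log2 ratio 0.11), and in called male cells 22064 and 22092 (0.00). Female VEH cells were thus the lowest of the 4 groups and the other 3 lay close together. All 3 chains were found in 98.1% of VEH and 97.9% of LEM cells, and only 32 and 59 cells lacked any C1q count.

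Across the microglial gates the summed C1q level was highest in Apoe high cells, at 23786 CPM in VEH and 24088 in LEM, followed by interferon cells at 22897 and 23965. In LEM the intervals of Apoe high (24031 to 24145) and interferon cells (23792 to 24139) overlap, so their order is not settled there. Homeostatic cells (21381 and 21981) and MHC class II high cells (21579 and 21649) lay close together when the sexes were pooled. In LEM the ratio of MHC class II high over homeostatic cells was -0.22 in called female and 0.10 in called male cells, so that the pooled value averages opposite differences, and in VEH it ranged from -0.12 to 0.04 over the alternatives. Intermediate cells, at 19658 and 19975 CPM, were also lower than homeostatic cells, with log2 ratios of -0.12 (-0.13 to -0.11) in VEH and -0.14 (-0.15 to -0.13) in LEM. Called female cells gave -0.20 and -0.22 and called male cells -0.04 and -0.08. DAM cells were lower by a similar amount, at 18819 and 20049 CPM, a log2 ratio over homeostatic cells of -0.18 (-0.20 to -0.17) in VEH and -0.13 (-0.15 to -0.12) in LEM. Proliferating cells had the lowest level, at 14898 and 16014 CPM, with ratios of -0.52 (-0.54 to -0.50) and -0.46 (-0.47 to -0.44). Mean counts per cell went the other way in these deeper gates. The C1q sum was 214 per DAM cell in VEH and 243 in LEM, and 154 and 173 per proliferating cell. Homeostatic cells had 135 and 137. In CPM the order of these gates was shared by both libraries at its 2 ends, though the upper end is not settled in LEM.

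In single homeostatic cells the 5th, 50th and 95th percentiles of the C1q sum were 55.4, 213 and 324 per 10000 counts of a cell in VEH, and 87.0, 217 and 337 in LEM. The lower tail was thus longer in the VEH library while the medians lay close together. By depth, homeostatic cells of 2000 to 4000 counts had 18614 CPM in VEH and 19623 in LEM, and the 4 deeper bins lay between 20859 and 22608.

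The proportion of the chains was nearly fixed. Over the 7 microglial gates of both libraries, C1qa made up 35.7% to 39.0% of the C1q counts, C1qb 31.8% to 35.0% and C1qc 28.6% to 30.5%. These shares are of counts read at the 5′ end, not corrected for gene-specific capture, and are compared between cells rather than between chains.

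C3, the component on which all pathways meet, was nearly silent in these cells. It gave 34 counts in VEH and 69 in LEM, or 0.293 and 0.429 CPM, from 30 and 57 cells, most of which (27 and 50) held a single count. The log2 ratio of LEM over VEH was 0.55 (-0.06 to 1.19), which includes no difference. The DAM, MHC class II high and intermediate gates gave 13 of the counts in VEH and 28 in LEM, of which 1 cell gave 7, and the homeostatic gate gave 14 and 23.

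In DAM cells 5 of 134 (3.73%, 1.22 to 8.49) in VEH and 5 of 195 (2.56%, 0.838 to 5.88) in LEM held a C3 count. Of MHC class II high cells, 6 of 295 (2.03%, 0.750 to 4.37) and 9 of 255 (3.53%, 1.63 to 6.59) did. In homeostatic cells it was 11 of 14561 (0.0755%, 0.0377 to 0.135) and 21 of 18236 (0.115%, 0.0713 to 0.176). These shares were not corrected for depth, and the DAM cells are the deeper. Thinned to 2000 counts, 2 of 133 DAM cells in VEH (1.50%, 0.183 to 5.33) and 1 of 194 in LEM (0.515%, 0.0130 to 2.84) held a C3 count. For MHC class II high cells it was 0 of 286, which allows a share of up to 1.05% by the limit of 3 counts (Clopper-Pearson upper bound 1.28%), and 3 of 254 (1.18%, 0.244 to 3.41). Homeostatic cells thinned in the same way had 4 of 14561 (0.0275%, 0.00749 to 0.0703) and 10 of 18236 (0.0548%, 0.0263 to 0.101). At this depth the interval lay above that of homeostatic cells for DAM cells in VEH and MHC class II high cells in LEM, and overlapped it for DAM cells in LEM and MHC class II high cells in VEH. In CPM, which takes depth into account, the DAM level was 3.28 CPM from 5 counts in VEH and 5.08 CPM from 12 counts in LEM, against 0.153 and 0.202 CPM in homeostatic cells, log2 ratios of 4.42 (2.60 to 5.98) and 4.65 (3.51 to 5.72).

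These C3 values rest on a handful of cells. A single DAM cell of LEM held 7 of the 12 C3 counts of its gate, so counts within a cell are not independent. Without it, a choice made after seeing the data, the DAM level in LEM was 2.13 CPM from 5 counts and the log2 ratio 3.40 (1.65 to 4.83). Over the alternatives tried the DAM ratio ranged from 3.60 to 5.77 in VEH and from 2.49 to 5.04 in LEM. C3 was also counted 2 times in the choroid plexus droplets of VEH and 0 times in those of LEM, and 1 and 2 times in BAM.

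**Figure D1:**
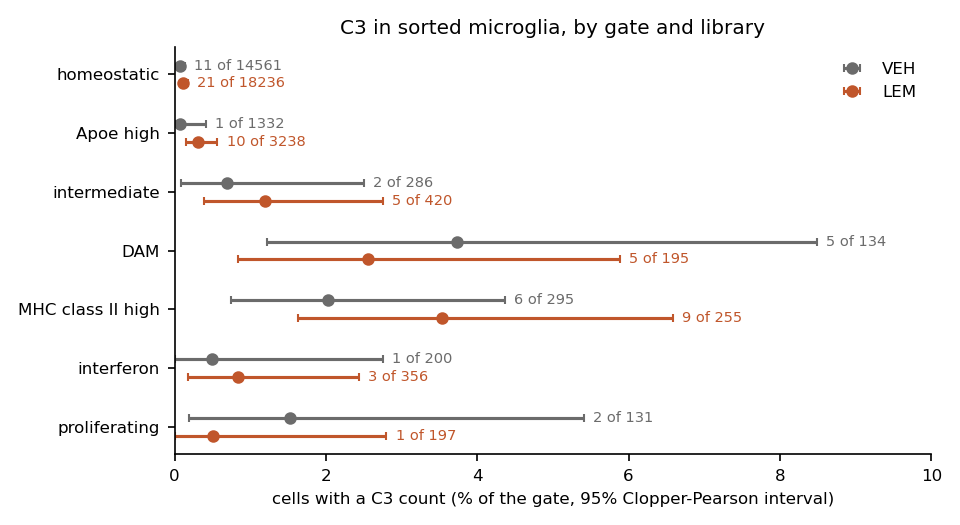
Share of cells with at least 1 C3 count (x axis, percent of the gate) in each microglial gate (y axis) of the VEH and LEM libraries. Points are the share without thinning, bars the 95% Clopper-Pearson interval and the labels the number of cells, and the gates differ in depth. DAM and MHC class II high cells lie between 2.03% and 3.73%, and homeostatic cells at 0.0755% and 0.115%.

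The receptor genes for C3a and C5a showed different patterns over the states. C3ar1, on mouse chromosome 6 (chr6:122847138-122856161), encodes the receptor for C3a. It was at 269 CPM in VEH and 306 in LEM and had a count in 63.1% and 68.9% of cells. Its highest level over the microglial gates was in intermediate cells, at 390 and 372 CPM, with log2 ratios over homeostatic cells of 0.56 (0.47 to 0.65) in VEH and 0.31 (0.23 to 0.38) in LEM. The VEH ratio was 0.33 in called female and 0.79 in called male cells, and the LEM ratio ran from 0.21 to 0.43 over the alternatives. DAM cells stood at 332 and 334 CPM and interferon cells at 334 and 353, and these neighbours do not differ beyond their intervals. In LEM the CPM interval of intermediate cells (354 to 391) also overlaps those of interferon (332 to 375) and DAM cells (311 to 358). The highest rank is therefore not settled in LEM. The DAM ratio over homeostatic cells ran from 0.11 to 0.51 in VEH and from -0.10 to 0.40 in LEM over the alternatives. Homeostatic cells were at 265 and 301 CPM.

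C5ar1, which encodes the signalling receptor for C5a, and C5ar2, the other C5a receptor that does not couple to G proteins, are neighbours on mouse chromosome 7. C5ar1 spans chr7:16246743-16259540 and C5ar2 chr7:16234585-16244154, both on the reverse strand, with 2588 bases between them. The 250 bases before a RefSeq start of C5ar2 are printed (chr7:16244155-16244404, GRCm38.p6), since of the 8 detected members it had the widest range between states, though close to that of Itgam. Capitals again mark GGAAGT on either strand.
C5ar2: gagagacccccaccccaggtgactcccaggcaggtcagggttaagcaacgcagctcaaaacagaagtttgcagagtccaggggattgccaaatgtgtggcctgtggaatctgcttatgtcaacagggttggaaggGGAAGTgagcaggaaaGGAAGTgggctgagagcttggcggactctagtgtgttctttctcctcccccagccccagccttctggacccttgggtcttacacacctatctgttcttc
The matches lay at 115 and 99 bases before this start. RefSeq gives C5ar2 a further start inside the gene span, and its window (chr7:16242332-16242581), not printed, holds 0 matches.

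Of the 8 detected members C5ar2 had the widest range over the microglial gates, 2.51-fold in VEH and 2.45-fold in LEM. Itgam was close, at 2.36-fold and 2.31-fold, so the order of these genes is not settled. The C5ar2 level was 54.9 CPM in homeostatic cells of VEH and 44.7 in those of LEM. In DAM cells it was 24.9 CPM (17.6 to 34.2) from 38 counts and 18.2 CPM (13.2 to 24.5) from 43 counts. The log2 ratio of DAM over homeostatic cells was -1.14 (-1.64 to -0.68) in VEH and -1.30 (-1.76 to -0.86) in LEM. MHC class II high cells had 26.1 and 22.8 CPM (-1.07 and -0.97), interferon cells 28.5 and 30.9 (-0.95 and -0.53) and intermediate cells 38.5 and 23.3 (-0.51 and -0.94). All these intervals lie below 0. Those of DAM, MHC class II high and interferon cells overlap in VEH, while in LEM that of interferon cells (-0.84 to -0.24) lies above that of DAM cells. C5ar2 is a gene that the study itself names as homeostatic, so its direction here is not independent evidence. Over the alternatives the DAM ratio ran from -4.68 (gates on thinned cells, which leave 48 cells) to -0.94 in VEH and from -1.63 to -1.04 in LEM. The MHC class II high ratio ran from -1.64 to -0.79 in VEH and from -1.15 to -0.53 in LEM. The call in intermediate cells of VEH is lost in called male cells alone, at -0.38, and that in interferon cells of LEM with lower marker minimums, at -0.43.

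C5ar1 did not follow it. Homeostatic cells had 155 CPM in VEH and 124 in LEM, and DAM cells 178 and 125, with log2 ratios of 0.19 (0.02 to 0.37) and 0.02 (-0.15 to 0.18). Over the alternatives these ran from -0.13 to 0.31 in VEH and from -0.18 to 0.15 in LEM, so neither has a settled direction. In MHC class II high cells it was lower, at 120 and 92.0 CPM (-0.37 and -0.43), with alternatives from -0.62 to -0.28 and from -0.80 to -0.33. Proliferating cells had the lowest C5ar1 level, from 135 counts in VEH and 130 in LEM (61.0 CPM in LEM), with ratios over homeostatic cells of -0.64 (-0.89 to -0.39) and -1.02 (-1.28 to -0.77). In called male cells of VEH alone the proliferating ratio was -0.27.

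In CPM, Itgam and Itgb2, the alpha and beta chains of complement receptor 3, went in opposite directions between homeostatic and DAM cells. Itgam (chr7:128062640-128118491, forward strand) was at 468 CPM in homeostatic cells of VEH and 424 in those of LEM, and at 315 and 290 in DAM cells, log2 ratios of -0.57 (-0.70 to -0.44) and -0.54 (-0.66 to -0.44). Its mean counts per cell were not lower in DAM cells, at 3.59 and 3.52 against 2.94 and 2.64 in homeostatic cells. Itgb2 (chr10:77530252-77565708, forward strand) was at 326 and 340 CPM in homeostatic cells and at 501 and 489 in DAM cells, log2 ratios of 0.62 (0.51 to 0.72) and 0.52 (0.44 to 0.61). Itgam is also the gene whose protein was gated in the sort, and cells with little CD11b would have been left out in every state. The DAM ratio of Itgam in VEH was -0.33 when gates were set on thinned cells, and that of Itgb2 in LEM 0.47 with thinned counts. In called male cells of LEM alone the Itgam ratio was -0.49, so that each of these values misses the fold of 0.5 used below.

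Itgam was also lower in intermediate cells, at 325 and 286 CPM (-0.53 and -0.57), and lowest in proliferating cells, at 198 and 183 CPM, with ratios of -1.24 (-1.42 to -1.06) and -1.21 (-1.36 to -1.06). Itgb2 in proliferating cells stood at 278 and 327 CPM (-0.23 and -0.05).

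Itgb2 also pairs with other alpha chains. Itgax encodes CD11c, the alpha chain of complement receptor 4, Itgad encodes CD11d, and Itgal encodes CD11a of the lymphocyte integrin LFA-1. Among the counts of Itgam, Itgax, Itgad and Itgal, Itgam made up 94.5% in homeostatic cells of VEH and 92.5% in those of LEM. In DAM cells its part was 63.1% and 61.4%, and that of Itgax 34.8% (31.4 to 38.3) and 36.9% (34.0 to 39.8). In MHC class II high cells Itgax reached 43.0% (40.7 to 45.3) and 45.6% (43.2 to 48.0), and in intermediate cells 23.8% and 24.0%, against 2.62% (2.48 to 2.77) and 4.49% (4.31 to 4.67) in homeostatic cells. The Itgax part was larger in LEM than in VEH beyond counting error in homeostatic, Apoe high, interferon and proliferating cells, and the intervals overlapped in the other microglial gates. It was also larger in the choroid plexus droplets, at 1.24% (0.151 to 4.42) in VEH and 10.7% (7.41 to 14.9) in LEM. A higher Itgax level in LEM is already reported by the study from the same libraries.

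**Figure D2:**
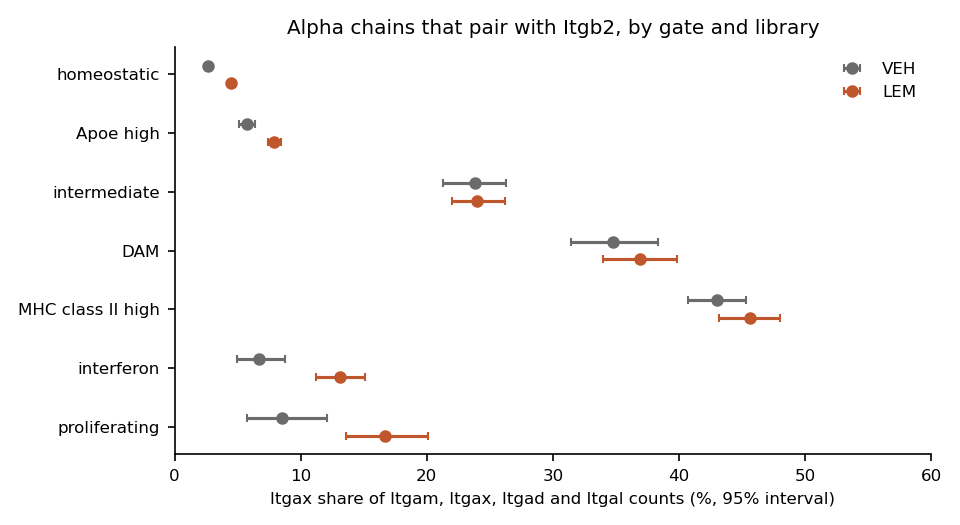
Itgax counts as a percentage of the counts of the alpha chains Itgam, Itgax, Itgad and Itgal (x axis) in each microglial gate (y axis) of VEH and LEM. Points are the share and bars the 95% Clopper-Pearson interval. The share lies at 2.62% and 4.49% in homeostatic cells and between 34.8% and 45.6% in DAM and MHC class II high cells.

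To set these differences against all genes, a gene was called when its log2 ratio over homeostatic cells reached 0.5 in the same direction in both libraries. In DAM cells 1 of the 8 detected members was higher by this rule (Itgb2) where 7.26% of all 11910 genes were, and 2 were lower (C5ar2 and Itgam) where 26.8% were. In intermediate cells 0 were higher (5.82% of all genes) and 2 lower (C5ar2 and Itgam, 11.2%). In MHC class II high cells 0 were higher (6.38%) and 1 lower (C5ar2, 22.8%), and in interferon cells 0 were higher (4.26%) and 1 lower (C5ar2, 6.17%). In proliferating cells 0 were higher (18.3%) and 2 lower (C5ar1 and Itgam, 14.0%), and in Apoe high cells 0 were higher (0.395%) and 0 lower (0.907%). The median log2 ratio of the 8 members was -0.14 and -0.09 in DAM cells, where that of all genes was -0.35 and -0.35. In proliferating cells it was -0.48 and -0.44 against 0.03 and 0.00 over all genes. These medians lean on the C1q chains, which keep a nearly fixed proportion and are not separate members in this respect. In proliferating cells C1qb was at -0.50 and -0.45 and C1qc at -0.47 and -0.41. C3ar1 (0.12 and -0.21) and Itgb2 were higher, C5ar2 was at 0.02 and -0.42, and C5ar1 and Itgam were lower.

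**Figure D3:**
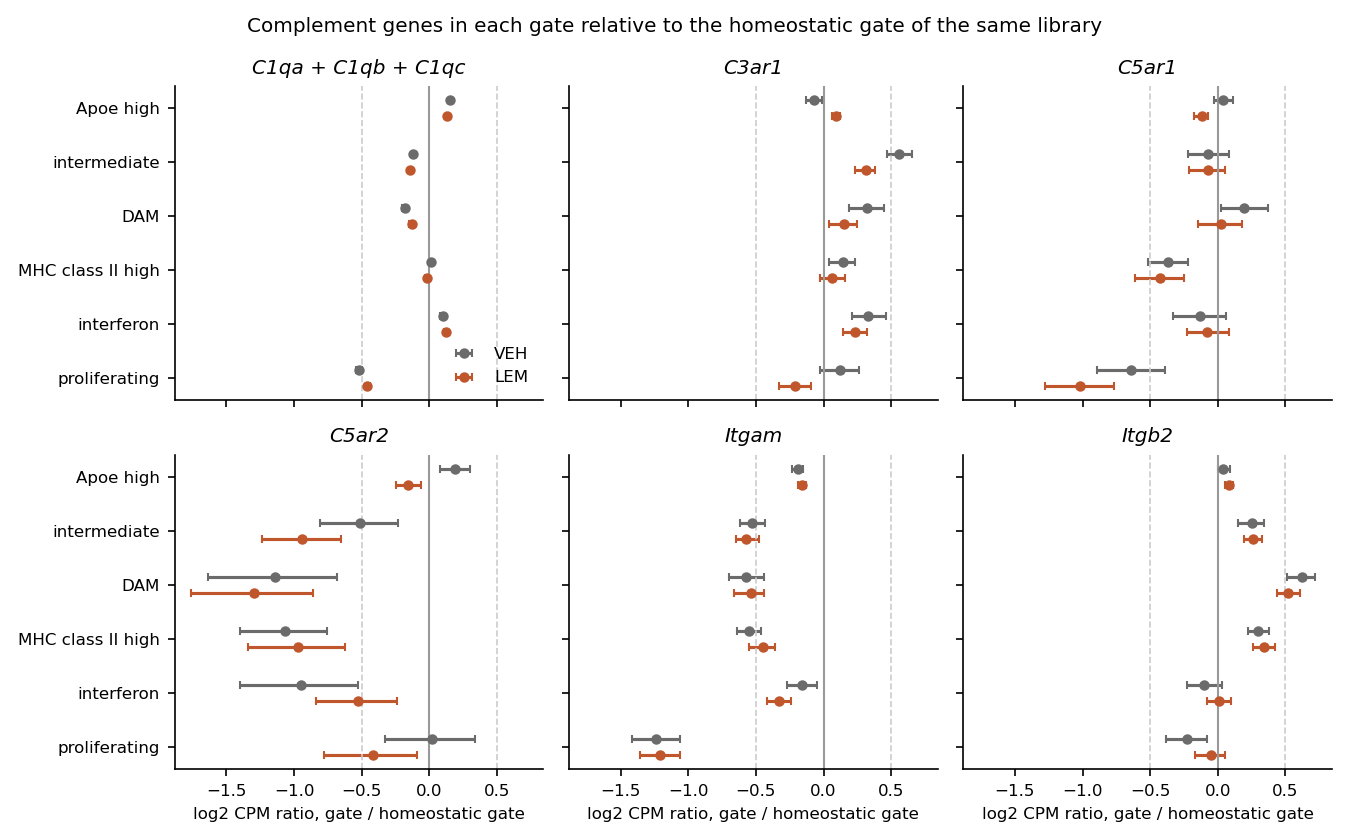
Log2 ratio of CPM in each microglial gate over the homeostatic gate of the same library (x axis), for the summed C1q chains and 5 further genes, in VEH and LEM. Bars are 95% intervals from counting, and dashed lines mark ratios of -0.5 and 0.5. C5ar2 and Itgam lie below -0.5 and Itgb2 above 0.5 in DAM cells of both libraries, while summed C1q stays between -0.18 and 0.15 outside the proliferating gate.

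Between treatments, the C5a receptors had the largest difference of the 8 detected members when all cells were pooled. In called female cells alone Itgam (-0.22) and C3ar1 (-0.20) had ratios of larger size than C5ar1 and C5ar2 (-0.18 each), with intervals that overlap. C5ar1 had 154 CPM in VEH cells and 120 in LEM cells, which is a log2 ratio of -0.36 (-0.39 to -0.33). Called female cells had 152 CPM in VEH and 134 in LEM, and called male cells 154 and 110. C5ar2 was at 53.7 CPM in VEH and 41.7 in LEM, also -0.36 (-0.41 to -0.31), with 47.2 and 41.8 in called female and 59.0 and 42.3 in called male cells. For both genes the female and male values of LEM lay below those of VEH. The study itself reports, from the same libraries, a lower proportion of cells with C5ar2 in LEM. The C5ar2 difference is therefore not a separate finding. In called female cells alone each ratio was -0.18, short of the fold of 0.25 used between libraries.

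The difference in C5ar1 was found in every state. Its log2 ratio of LEM over VEH lay between -0.71 in proliferating and -0.27 in interferon cells, with an interval below 0 in 7 of 7 gates. In homeostatic cells alone it was -0.33 (-0.36 to -0.29), with -0.15 in those called female and -0.46 in those called male. C5ar2 was lower in LEM in 6 of 7 gates, with -0.30 (-0.35 to -0.24) in homeostatic and -0.64 (-0.78 to -0.51) in Apoe high cells, and stood at 0.12 (-0.41 to 0.66) in interferon cells. Its interval lay below 0 in 4 gates, and homeostatic cells called female and male gave -0.14 and -0.41. Within the 5 depth bins of homeostatic cells, C5ar1 ranged from 144 to 166 CPM in VEH and from 114 to 128 in LEM, without overlap, and C5ar2 from 51.3 to 56.2 and from 40.6 to 46.4. Gates and bins are cells of the same pools of mice, so they do not repeat the comparison in other mice.

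Itgam was lower in LEM, in all cells by a smaller amount than the C5a receptors, at 448 CPM in VEH and 400 in LEM (-0.16, -0.18 to -0.15). Called female cells had 488 and 418 CPM and called male cells 425 and 389, so that the LEM values again lay below those of VEH, and the ratio was below 0 in 7 of 7 gates (-0.31 to -0.05), with its interval below 0 in 4. Itgb2 moved little, at 332 and 346 CPM (0.06, 0.04 to 0.08), with female values of 357 and 358 and male values of 315 and 339.

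C3ar1 went apart by sex. It was at 318 CPM in called female cells of VEH and 277 in those of LEM (-0.20, -0.24 to -0.17), and at 241 and 327 in called male cells (0.44, 0.41 to 0.47). Female cells were therefore the higher in VEH, by a log2 ratio of 0.40, and the lower in LEM, by -0.24. The pooled ratio of 0.18 (0.16 to 0.20) averages opposite differences. For comparison, the female over male ratio was -0.02 in VEH and 0.29 in LEM for C5ar1 and -0.32 and -0.02 for C5ar2. Differences between the sexes within a library, which are also different mice, thus came close to those between the libraries.

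By the rule of a log2 ratio of at least 0.25 with the same sign in both sexes, 0 of the 8 detected members were higher in LEM, where 5.14% of all genes were, and 2 were lower (C5ar1 and C5ar2), where 3.79% were. The female and male values of LEM both lay above those of VEH for 1 member (C1qa, at 8013 and 8098 CPM in VEH and 8751 and 8295 in LEM), where 22.7% of genes showed this, and below them for 3 (C5ar1, C5ar2 and Itgam), where 15.2% did. A ratio above 0 in each of the 7 gates was found for 1 member (C1qa, 4.53% of genes) and below 0 in each for 2 (C5ar1 and Itgam, 3.29%). The median ratio was 0.03 over the members, set by C1qb (0.01) and C1qc (0.04), and 0.01 over all genes. The mice, the pool and the library differ together with the treatment and cannot be told apart.

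**Figure D4:**
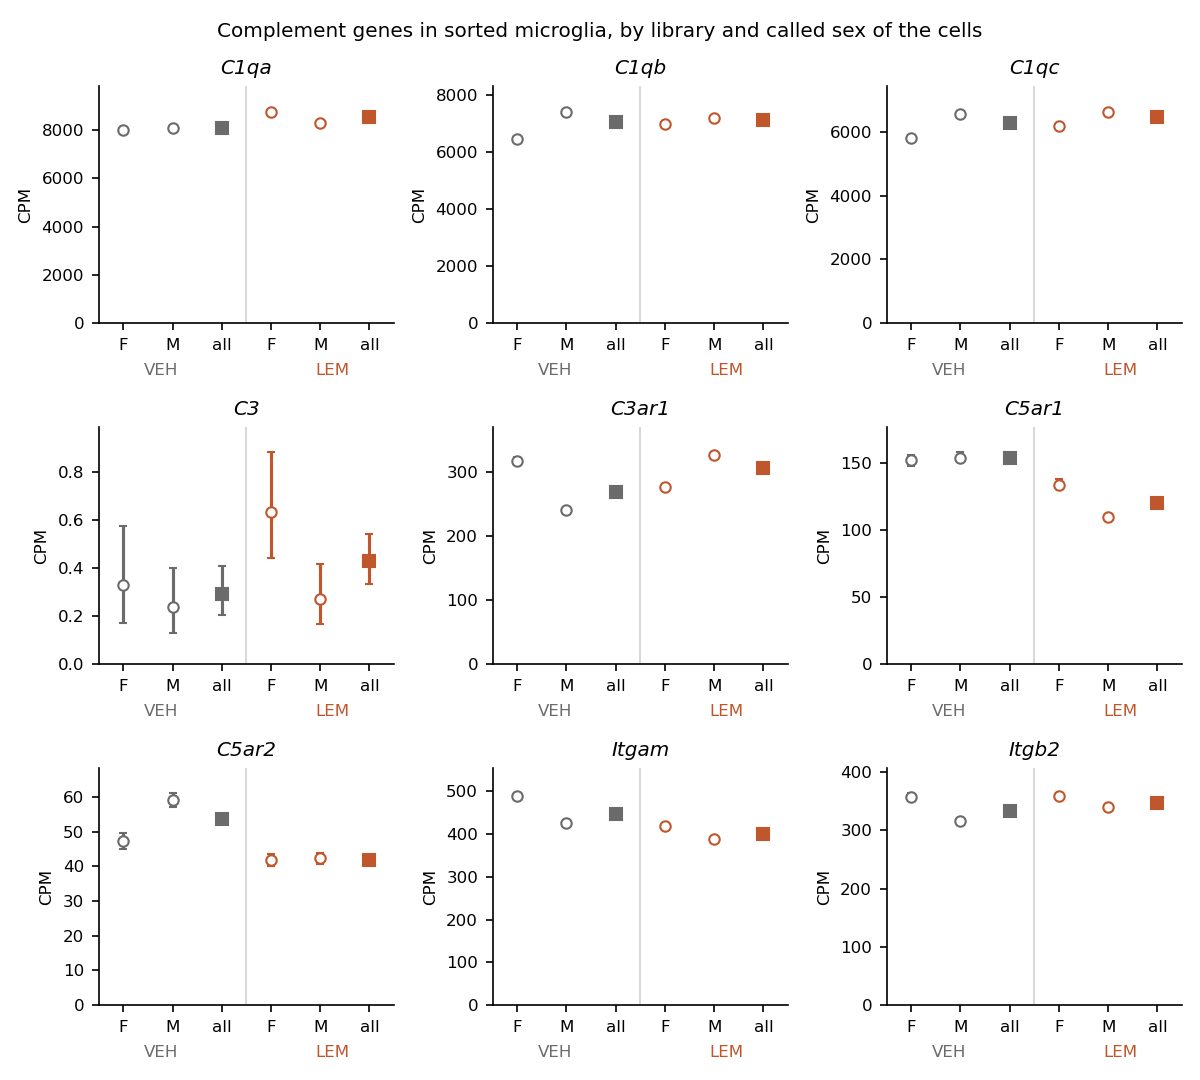
CPM of each of the 9 genes (y axis, from 0) in called female cells (F), called male cells (M) and all cells of VEH and LEM. Open circles are the called sexes, filled squares all cells, and bars the 95% Poisson interval, often smaller than the symbol. C5ar1, C5ar2 and Itgam lie lower in both LEM sub-pools than in both VEH sub-pools, C3ar1 crosses over between the sexes, and C3 stays below 1 CPM.

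**Figure D5:**
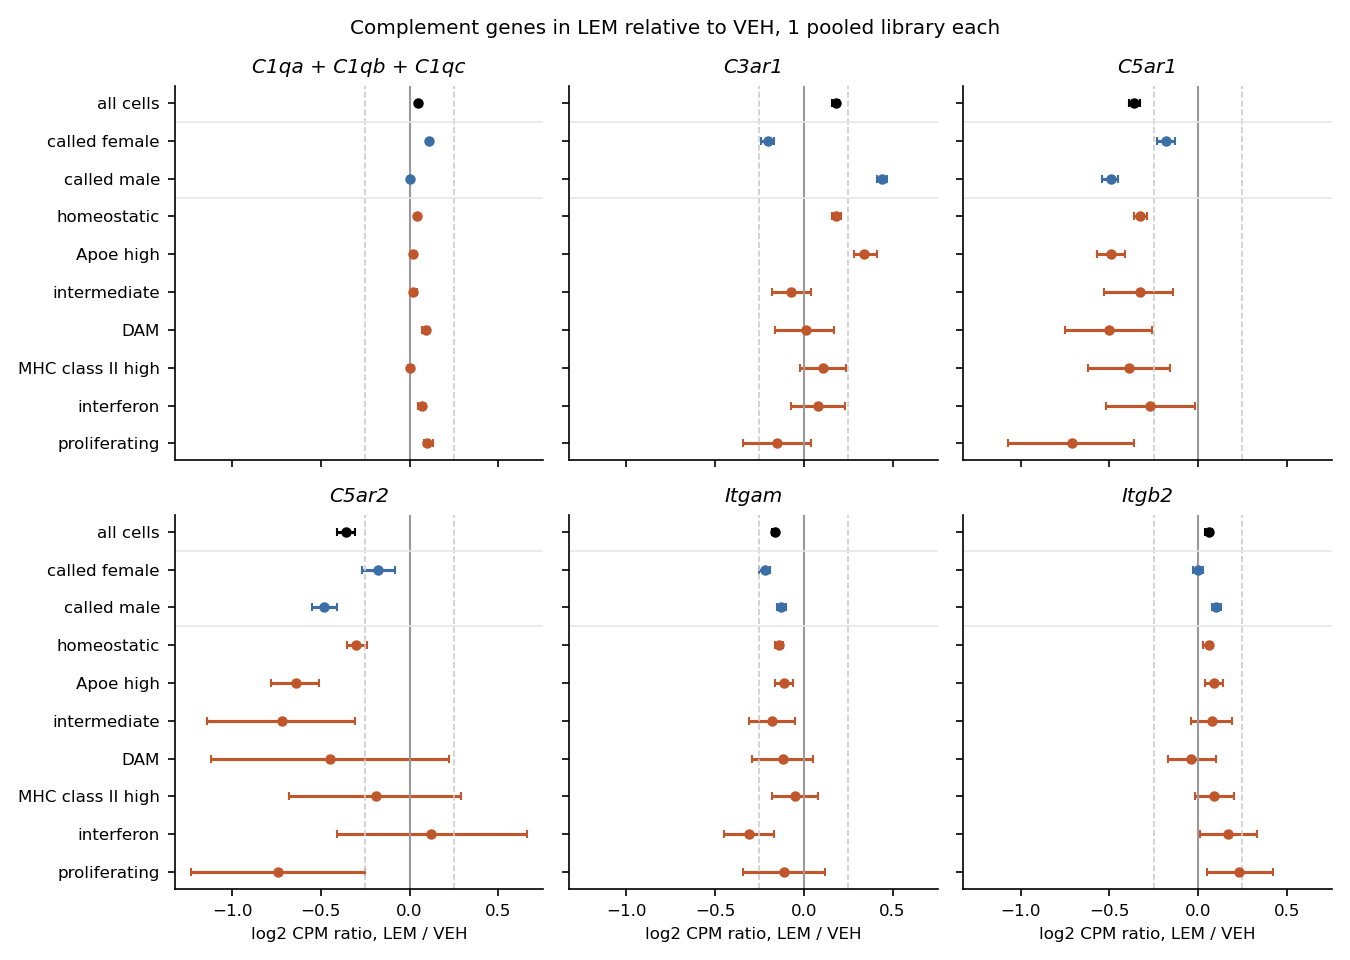
Log2 ratio of CPM in LEM over VEH (x axis) for all cells (black), called female and called male cells (blue) and each microglial gate (orange), with 95% intervals from counting and dashed lines at -0.25 and 0.25. C5ar1 is below 0 in every row, from -0.71 to -0.18, and C3ar1 has -0.20 in female and 0.44 in male cells.

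Whether the receptors share cells was read from cells thinned to 2000 counts, so that depth is the same. C5ar2 was found in 10.6% (9.63 to 11.6) of VEH cells with a C5ar1 count and in 9.68% (9.18 to 10.2) of those without, and in 7.81% (7.04 to 8.64) and 7.71% (7.33 to 8.10) in LEM. At this depth no difference was detectable for this pair. C3ar1 was more frequent in cells with C5ar1, at 41.2% (39.6 to 42.7) against 35.4% (34.6 to 36.2) in VEH and 46.9% (45.4 to 48.4) against 39.4% (38.7 to 40.1) in LEM, and in called female and called male cells of each library the share was also higher. For C5ar2, C3ar1 was found in 38.8% (36.5 to 41.2) of cells with and 36.5% (35.7 to 37.3) of cells without it in VEH. In LEM it was 43.8% (41.4 to 46.1) against 40.6% (39.9 to 41.3). Over all cells only the LEM intervals do not overlap, and within each called sex they overlap in both libraries. In homeostatic cells alone they were apart in both libraries. There the shares were 39.5% (37.0 to 42.0) against 36.0% (35.2 to 36.8) in VEH and 43.3% (40.8 to 45.9) against 39.7% (38.9 to 40.4) in LEM. Itgb2 was found in 46.6% of cells with and 45.1% of cells without Itgam in VEH, and in 48.2% and 47.5% in LEM.

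Droplets carry free RNA, for which a cell type without these genes would give the level. The choroid plexus droplets do not serve as one, since C1qa stood there at 66.6% of its homeostatic CPM in VEH and 53.2% in LEM, and the microglial genes P2ry12, Tmem119, Cx3cr1 and Csf1r at 58.4% to 66.9% and 47.3% to 51.0%. The other detected members were at 48.8% to 87.5% and 41.0% to 61.1%. These droplets thus hold the members and other microglial transcripts in broadly similar proportion. Both Xist and Y-linked counts were found in 17.0% and 12.1% of them, against 5.34% of all VEH and 7.23% of all LEM cells. This was not particular to these droplets. In LEM the share was 15.4% in interferon, 13.8% in intermediate and 13.7% in MHC class II high cells, and BAM had 21.7% in VEH and 24.6% in LEM. In VEH the microglial gates lay lower, up to 9.83% in MHC class II high cells. Depth was not held equal, and deeper cells more often hold both. The part of free RNA or joined cells in the shares of cells with a count was not tested.

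Of 50 further genes of the complement system that were listed, 13 were detected in at least 1% of cells and 37 were not, 12 of these with at most 3 counts in each library. Detected were 1 of 7 further classical genes (C1ra), 1 of 8 lectin pathway genes (Masp1), 6 of 14 regulators, 5 of 11 receptors and binding proteins, 0 of 4 genes of the central and alternative pathway and 0 of 6 of the terminal pathway. C1ra, one of the mouse genes for the protease C1r, was at 2.13 and 1.95 CPM. The genes for C1s, C4 and C2 did not pass the minimum. Cr1l, the membrane regulator Crry, was at 87.2 and 89.4 CPM.

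Of the 13 detected genes, 3 were higher in LEM by at least 0.25 with the same sign in both sexes and 0 were lower, beside the 5.14% and 3.79% of all genes. Of these 3, Cpn1 (in 0.876% of VEH and 1.14% of LEM cells) and Clu (0.604% and 1.01%) passed the minimum of 1% only through LEM. The minimum thus favours a higher value in LEM for both, and the count is not read as a result about the genes. Itgax was at 25.2 CPM in VEH and 32.5 in LEM (0.37, 0.30 to 0.43), and the ratio was 0.26 for called females and 0.47 for called males. The study itself reports, from the same libraries, a larger CD11c+ population with Itgax in LEM. The Itgax difference is therefore not a separate finding. Cpn1, a carboxypeptidase that trims anaphylatoxins, was at 1.45 and 1.82 CPM (0.33, 0.06 to 0.62). Clu, the terminal pathway inhibitor clusterin, was at 5.99 and 17.2 CPM (1.52), but at 1194 and 2016 CPM in choroid plexus droplets and at 0.437 and 0.492 CPM in homeostatic cells, and the LEM library held more such droplets.

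Over the states, Itgax and Masp1 were higher in most gates. Itgax was higher by at least 0.5 in both libraries in all 6 gates compared, with log2 ratios of 3.74 (3.55 to 3.94) and 3.08 (2.93 to 3.24) in DAM cells. Masp1, a protease of the lectin pathway, was at 11.3 and 12.8 CPM in homeostatic cells and at 40.0 and 29.2 in DAM cells (1.82 and 1.19), and passed the fold in 5 of the 6 gates, all but Apoe high. Cd46, a membrane cofactor that helps inactivate C3b, was lower in DAM cells, at 3.93 CPM from 6 counts and 3.81 CPM from 9 counts against 10.1 and 10.1 (-1.36 and -1.40). Itgad stood there at 9.18 and 8.04 CPM against 14.0 and 13.5, with ratios of -0.61 (-1.49 to 0.14) and -0.75 (-1.49 to -0.10), the first of which includes no difference. Lrp1 and Calr, a receptor complex for C1q-bound targets, were at -0.37 and -0.47 (Lrp1) and 0.40 and 0.45 (Calr) in DAM cells.

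Below the detection minimum, C4b and Cfb were picked out after their values were seen. C4b, which encodes complement C4, had 13 counts in VEH and 21 in LEM interferon cells, or 8.23 and 6.84 CPM, against 0.524 and 0.755 CPM in homeostatic cells, log2 ratios of 3.97 (2.96 to 4.88) and 3.18 (2.42 to 3.88). Cfb, factor B of the alternative pathway, had 22 and 13 counts in MHC class II high cells (6.92 and 4.43 CPM) and 8 and 17 in interferon cells (5.06 and 5.54 CPM), against 0.164 and 0.334 CPM in homeostatic cells. In DAM cells C4b had 1 and 0 counts. Cfb had 3 counts in DAM cells of each library, at 1.97 CPM in VEH and 1.27 in LEM, with log2 ratios over homeostatic cells of 3.59 (1.16 to 5.41) and 1.93 (-0.41 to 3.58). In intermediate cells it was at 1.13 and 1.88 CPM, and both intervals of its ratio lay above 0 (0.36 to 4.61 and 1.18 to 3.62). The C4b level was highest in BAM, at 62.4 CPM from 13 counts in VEH and 34.2 CPM from 18 counts in LEM.

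The genes whose level was most alike over the 7 gates and 2 libraries were ranked among 7518 genes by Pearson's r over these 14 values, which share depth, gates and free RNA within a library. For the C1q sum they were Rgs10 (0.95), Tmem33 (0.93) and Pld4 (0.93), and for C3, at its low counts, Ppib (0.96), Serf2 (0.93) and Ndufb9 (0.93). For C3ar1 they were Gpr84 (0.84), Mrto4 (0.80) and Atp6v1b2 (0.79), for C5ar1 D130009I18Rik (0.89), Ywhaz (0.89) and Cdc42 (0.84), and for C5ar2 Csmd3 (0.94), Myo18b (0.93) and Rab18 (0.91). Itgam was most like Fam98c (0.98), Hk2 (0.96) and Xbp1 (0.96), and Itgb2 most like Ctdnep1 (0.97), Srp14 (0.97) and Cyb5r1 (0.96).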

How the data were processed

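Cells of 5 mice per treatment were pooled, sorted and sequenced as 1 library per treatment with the 10x 5′ kit. Per the labels, reads were aligned and counted with Cell Ranger 8.0.0 against mm10. The deposited table holds whole-number counts of unique molecules per gene and cell, which the authors made after removing cells with few genes, many counts or a high mitochondrial share (fewest genes 501, most counts 19999, highest mitochondrial share 2.50% in the table). SoupX, a correction for free RNA, is named in the study's methods, and whether the deposited counts include it is not given in the sources used here. The table holds 42766 cells. This is fewer than the study states. Cell names carry no barcodes, so barcodes shared between libraries could not be counted, and no doublet caller was run.

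Counts were summed per gene over groups of cells and divided by the group total (CPM). Depth ranged over the medians given above, and intervals are exact Poisson, Clopper-Pearson (shares) or conditional binomial (ratios) at 95%, covering counting error only. No test was made, since each treatment is a single library. States were gates on raw marker counts, the first met in the order choroid plexus, BAM, proliferating, interferon, MHC class II high, DAM, intermediate, Apoe high, homeostatic, and 1 planned marker of the DAM and intermediate gates was not used here. The background was the 11910 genes detected in 1% or more of the cells of VEH or of LEM. The shares of cells with counts of a pair of genes used cells of at least 2000 counts thinned to 2000. The genes named are the 9 members, the other detected complement genes past the folds of 0.25 (libraries) or 0.5 (gates), regulators of high level, and the 3 genes most alike in pattern to each member. Some genes that this rule names are not reported here. The members, gates and lists were chosen with earlier results of these data known. Alternatives changed the normalization, the cells, the gates and the depth. Scripts used Python 3.11.15, numpy 2.4.6, scipy 1.17.1 and pandas 2.3.3 and were tested on simulated data. Sequences are from RefSeq, and gene spans from GENCODE.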

Additional observations from a re-analysis of the deposited data

Results flagged for a closer look

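C3ar1 differed between LEM and VEH in opposite directions in the sexes, with a log2 ratio of -0.20 in called female and 0.44 in called male cells, a female minus male difference of -0.64. C1qb did so by a smaller amount, with 0.11 in called female and -0.04 in called male cells, a difference of 0.15. Neither difference was tested, since each sex of a pool is 1 group of mice.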

How the results depend on the processing

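No paired analysis was possible because there is 1 library per treatment, and leaving out a replicate could not be run for the same reason. Of 1469 values under alternatives, 973 moved by less than their counting interval, 496 moved by more and 0 changed the sign of a called value. Ratios short of the folds were left out of this count of signs. Some of these did change sign, such as C3ar1 in LEM over VEH (-0.20 to 0.44) and in DAM over homeostatic cells of LEM (-0.10 to 0.40). The summed C1q ratio of LEM over VEH, 0.05, was 0.07 as a mean per 10000 counts of a cell, 0.11 in called female and 0.00 in called male cells, 0.06 with thinned counts or with the sexes weighted equally (added after seeing the data), 0.05 without cells under 2000 counts or without choroid plexus, BAM and proliferating cells, and 0.04 in homeostatic cells, without the 20 most abundant genes, without droplets of both sexes and with median-of-ratios scaling, which shifted all genes by 0.01. In DAM over homeostatic cells the C1q ratio of VEH, -0.18, was -0.30 in female cells and with gates set on thinned cells, -0.15 in male cells and with halved marker minimums, and -0.21 without droplets of both sexes and with thinned counts. That of LEM, -0.13, was -0.15 in male cells, without droplets of both sexes and with gates on thinned cells, -0.17 with doubled and -0.11 with halved minimums. The C3 ratio of DAM in LEM, 4.65, was 2.49 in male cells, 3.10 with thinned counts and 3.40 without the cell with most C3 counts (added after seeing the data). C5ar2 in DAM cells of VEH reached -4.68 with gates on thinned cells, which leave 48 cells. The cause of these shifts was not tested.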
